A study of Zea mays with 217 samples.

Results

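The 6 ZIM proteins ZIM1, ZIM3, ZIM16, ZIM18, ZIM27 and ZIM28 were profiled in maize leaf protoplasts among 104 transcription factors (TFs). Their target genes were taken from the deposited TF-to-target table by matching each TF to its gene model, which gave 16352 of the 272627 TF and target pairs and 6123 of the 20067 target genes. ZIM proteins carry the TIFY domain, and the JAZ group within them is known from Arabidopsis as repressors of jasmonate signalling. In that species a JAZ protein has no DNA-binding domain of its own and is held at promoters by partner TFs such as MYC2, a bHLH protein. When the hormone is perceived, JAZ proteins are degraded and their partners are released. Jasmonate is known for its part in the response to wounding and to chewing insects. Which of the 6 maize proteins act as JAZ repressors was not examined here.

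All samples were protoplasts released from leaves of 1- to 2-week-old seedlings of the cultivar B73. Each protoplast sample was transformed with a plasmid by polyethylene glycol, so that the TF, fused to an Avi tag that a co-expressed ligase marks with biotin, came from the plasmid as well as from its own gene. The chromatin held by the tagged TF was recovered with streptavidin beads. The leaves had been peeled and digested to release the cells, and the samples hold loose mesophyll cells, not an intact leaf. The 6 ZIM TFs had 13 libraries (3 for ZIM18 and 2 for each of the other 5) and the other 98 TFs had 204, out of 217 in all. No untransformed or hormone-treated group was among these samples, so the comparison here was between the ZIM TFs and the other 98 TFs. The study describes the same procedure for all of them, and batches were not analysed here. By the study's account, a pair was in the table when it passed a false-discovery rate of 5% in the TIP model. This model scores the binding near the start of a gene against a profile built for the same TF. The largest p in each ZIM list lay between 0.0495 and 0.05, whatever the length of the list. Whether the listed values are p-values before or after a false-discovery adjustment cannot be told here. The table held 1 p-value for each pair with the replicates combined, so the counts below have no replicate error, and the depth of each library was not analysed here.

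The genes of the 6 proteins were Zm00001d020409 (ZIM1), Zm00001d033049 (ZIM3), Zm00001d027901 (ZIM16), Zm00001d033050 (ZIM18), Zm00001d027900 (ZIM27) and Zm00001d020614 (ZIM28). Through older identifiers, RefSeq (assembly Zm-B73-REFERENCE-NAM-5.0) gave them the synonyms TIFY24, TIFY10, TIFY4, TIFY9, TIFY2 or TIFY3, and TIFY25, in that order. The ZIM27 and ZIM16 genes lie next to each other on chromosome 1, with 0 annotated genes between them, and so do the ZIM3 and ZIM18 genes. The ZIM1 and ZIM28 genes are on chromosome 7.

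The lists of targets differed most in ZIM1, which had the fewest targets and the smallest p-values. ZIM1 had 1526 targets, or 7.6% of all target genes, and ranked 97 of the 104 TFs by number of targets. ZIM3 had 3242 targets (16.2%, rank 7), ZIM18 3104 (15.5%, rank 20) and ZIM27 3066 (15.3%, rank 24). ZIM16 had 2838 targets (14.1%, rank 54) and ZIM28 had 2576 (12.8%, rank 71). Over all 104 TFs the median was 2854.5 targets, with a range of 21 to 3422, so that 3 ZIM TFs lay above the upper quartile of 3053.75 and ZIM1 below the lower quartile of 2460.

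The order changed once weak pairs were set aside. At a p of at most 0.001, ZIM16 had the most targets of the 6 with 1061, followed by ZIM28 with 1018, ZIM3 with 957, ZIM27 with 908, ZIM18 with 885 and ZIM1 with 845. At a p of at most 1e-05, ZIM1 had the most with 494 and ZIM28 had 491, whereas ZIM3 had 287. The share of pairs with a p of at most 0.001 was 55.4% in ZIM1, 39.5% in ZIM28 and 37.4% in ZIM16. It was between 28.5% and 29.6% in ZIM3, ZIM18 and ZIM27, which had the 3 longest lists. Weaker pairs thus made up most of every list but that of ZIM1. The median p was 4.32e-04 for ZIM1, 0.00321 for ZIM28 and 0.00338 for ZIM16. It was 0.00587 for ZIM3, 0.00658 for ZIM27 and 0.00677 for ZIM18. The smallest p of any pair of a ZIM TF was 2.01e-108, in ZIM1, and the smallest p of ZIM3 was 5.84e-21.

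**Figure D1:**
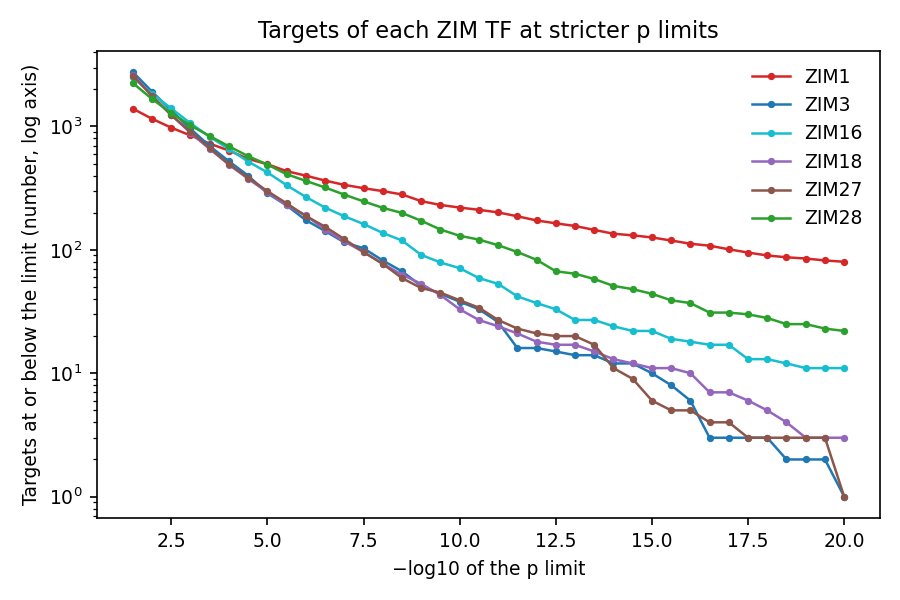
Number of targets (log axis) of each ZIM TF at or below a p limit, drawn against −log10 of the limit in steps of 0.5; each line is 1 TF with its replicates combined. ZIM1 starts lowest at the weakest limit drawn, with 1394 targets, and ends highest, with 80 targets at or below 1e-20, where ZIM3 and ZIM27 have 1 each.

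Of the 6123 genes listed by at least 1 ZIM TF (30.5% of all target genes), 634 were core targets, listed by all 6 (3.16%), and 2404 were private targets, listed by 1 of the 6 (12%). Between these, 1079 genes were listed by 2 ZIM TFs, 703 by 3, 638 by 4 and 665 by 5. The number of core targets was set mainly by ZIM1: of the 665 genes listed by 5 ZIM TFs, ZIM1 was the one missing for 447, whereas ZIM3 was missing for 62, ZIM16 for 59, ZIM27 for 43, ZIM28 for 33 and ZIM18 for 21. Without ZIM1, 1081 genes were listed by all of the other 5. Core targets made up 41.5% of the ZIM1 list and 24.6% of the ZIM28 list, and between 19.6% and 22.3% of the lists of the other 4.

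Core targets held most of the strongest pairs of every ZIM TF. Among the 100 targets with the smallest p, 81 were core for ZIM1, 78 for ZIM16, 75 for ZIM28, 72 for ZIM27, 69 for ZIM3 and 68 for ZIM18. Private targets among those 100 numbered 3 for ZIM1, 1 each for ZIM3, ZIM18 and ZIM27, and 0 for ZIM16 and ZIM28. The strongest pairs were nevertheless not in the same order from one ZIM TF to another. The 6 sets of 100 came to 353 genes, of which 223 stood in 1 set, 67 in at least 3 and 4 in all 6. EREB198, an AP2/ERF-family TF gene, was the one profiled TF gene among those 4.

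The p-values of core targets were lower than those of private targets in each list. The median p of the core targets was 1.21e-05 in ZIM1, 2.38e-05 in ZIM28, 6.88e-05 in ZIM16, 2.53e-04 in ZIM3, 2.81e-04 in ZIM27 and 3.83e-04 in ZIM18. The median p of the private targets was 0.0123 in ZIM1 and between 0.0173 and 0.0219 in the other 5. Of the core targets, 172 (27.1%) had a p of at most 0.001 in all 6 ZIM TFs and 43 (6.78%) a p of at most 1e-05 in all 6. At the other end, 17 core targets (2.68%) had a p above 0.001 in every ZIM TF.

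Private targets were spread unevenly over the family. ZIM3 had 603, or 18.6% of its list, ZIM18 had 497 (16%) and ZIM27 had 445 (14.5%). ZIM16 had 329 (11.6%), ZIM28 had 275 (10.7%) and ZIM1 had 255 (16.7%). ZIM1 therefore had the fewest private targets and the second largest private share of the 6. Its private targets also reached the smallest p, 5.99e-37, whereas the smallest p of a private target lay between 6.67e-09 and 2.00e-06 in the other 5.

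**Figure D2:**
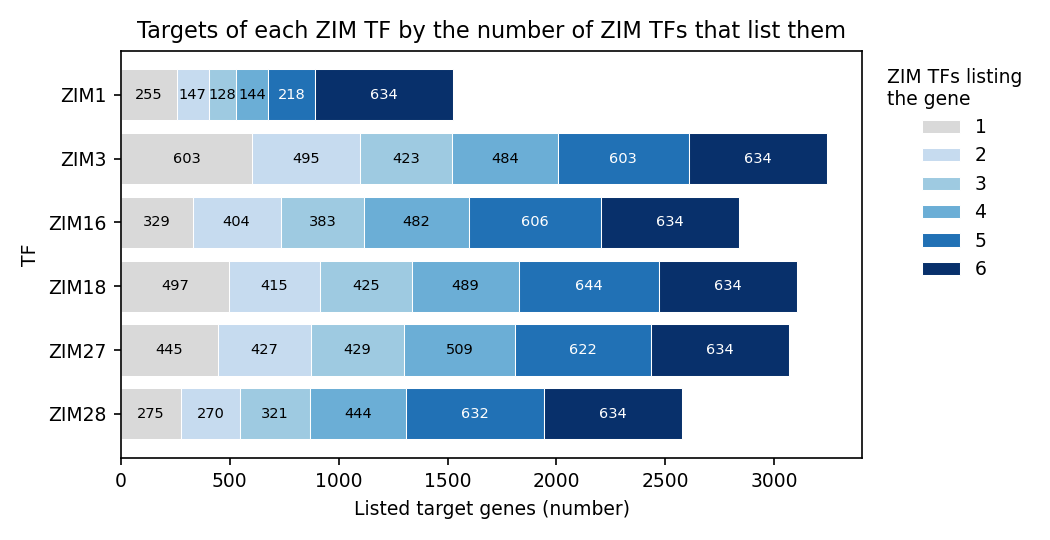
Number of target genes of each ZIM TF, split by how many of the 6 ZIM TFs list the gene (1, private, in grey, to 6, core, in dark blue). The 634 core targets are the same genes in every bar, and the ZIM1 bar, 1526 genes long, is the shortest.

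Genes listed by 2 ZIM TFs showed which members went together. ZIM3 with ZIM16 accounted for 211 of the 1079 such genes (19.6%) and ZIM18 with ZIM27 for 166 (15.4%). The pairs of ZIM TFs whose own genes neighbour each other were less frequent than these. They had 98 genes (9.08%) for ZIM3 with ZIM18 and 75 (6.95%) for ZIM16 with ZIM27. Only ZIM3 with ZIM27 (104 genes) stood between, and all remaining pairs had fewer. Each pair that held ZIM1 gave between 17 and 47 genes, the highest with ZIM28.

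The same grouping appeared in the Jaccard index, which is the number of targets that 2 TFs share divided by the number that either lists. The highest index within the family was 0.495 for ZIM18 and ZIM27, which shared 2044 targets, or 65.9% of the ZIM18 list and 66.7% of the ZIM27 list. ZIM3 and ZIM16 followed with 0.483 and 1980 shared targets, or 61.1% of the ZIM3 list and 69.8% of the ZIM16 list. The neighbouring pairs had 0.441 (ZIM16 and ZIM27) and 0.419 (ZIM3 and ZIM18). The 10 pairs without ZIM1 lay between 0.416 and 0.495, whereas the 5 pairs with ZIM1 lay between 0.242 (ZIM3) and 0.332 (ZIM28).

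A shorter list limits the index, and the sizes of the lists would have allowed ZIM1 no more than 0.471 with ZIM3 and 0.592 with ZIM28. With the 1000 targets of smallest p of each TF in place of the whole lists, the pairs with ZIM1 still had the 5 lowest values, between 0.252 and 0.301, against 0.325 to 0.423 for the other 10 pairs. As a share of its own list, ZIM1 had between 60.9% (ZIM3) and 67% (ZIM28) of its targets in common with each of the others. ZIM18 and ZIM27 kept the highest index of the 15 pairs at equal size (0.423), whereas ZIM3 and ZIM16 moved to place 5 with 0.362. Of the pairs with neighbouring genes, ZIM16 and ZIM27 were at place 4 (0.365) and ZIM3 and ZIM18 at place 10 (0.325).

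The order of p-values over the core targets kept ZIM18 with ZIM27 first and ZIM1 last, but not ZIM3 with ZIM16 as a pair. Across the 634 core genes, Spearman's rho between the p-values of 2 ZIM TFs was 0.69 for ZIM18 and ZIM27, 0.55 for ZIM18 and ZIM28 and 0.54 for ZIM27 and ZIM28. For ZIM3 and ZIM16 it was 0.48 (place 6 of 15), below ZIM3 and ZIM27 (0.51) and about level with ZIM3 and its neighbour ZIM18 (0.49). The 5 pairs with ZIM1 had the lowest values, between 0.17 and 0.37, and the 10 pairs without it lay between 0.42 and 0.69. These values are across genes, which are not independent replicates, and all the pairs share the same gene models and TIP procedure.

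On average, ZIM TFs shared more targets with each other than with the other TFs, although some TFs outside the family came as close. The index averaged 0.391 ± 0.0861 (SD) over the 15 ZIM pairs and 0.27 ± 0.0884 over all pairs of a ZIM TF and one of the other 98, which ranged from 0.00227 to 0.462. No test was made of this difference, because every list enters many pairs. Over the whole lists, the partner with the highest index was another ZIM TF for ZIM3, ZIM16, ZIM18, ZIM27 and ZIM28. This held for the first 4 of them also at p limits of 0.001 and 1e-05 and with 1000 targets each. For ZIM28 the nearest partner was MAB16 (0.372) at a p of at most 0.001 and PCO135758 (0.301) at a p of at most 1e-05, just ahead of ZIM27 (0.369) and ZIM16 (0.294). By the overlap coefficient, shared targets over the shorter list, MYBR64 with its 462 targets was nearest to all 5. For ZIM3 and ZIM16, the first 4 places of 103 were all held by ZIM TFs. ZIM1 came lower over the whole lists, where 67, 50, 68, 66 and 30 outside TFs stood above it in the order ZIM3, ZIM16, ZIM18, ZIM27 and ZIM28. With 1000 targets each, and TFs with fewer than 1000 targets left out, these numbers were 23, 13, 46, 35 and 10. At a p of at most 0.001, where the lists were not cut to equal length, they were 19, 13, 30, 26 and 11. Both settings removed weaker pairs as well as changing the lengths of the lists, and the part of each was not tested.

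ZIM1 itself was nearest to a homeobox TF. HB38 had an index of 0.335 with ZIM1, ahead of ZIM28 (0.332) and HB33 (0.329), also a homeobox TF, and MAB16 followed with 0.299. ZIM1 shared 806 targets with HB38, or 52.8% of the ZIM1 list and 47.8% of the HB38 list. It shared more with ZIM28, 1023 targets, or 67% of the ZIM1 list and 39.7% of the ZIM28 list. The list of HB38, with 1687 targets, was nearer in length to that of ZIM1. At a p of at most 0.001, and with 1000 targets each, ZIM28 took the first place (0.294 and 0.301).

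**Figure D3:**
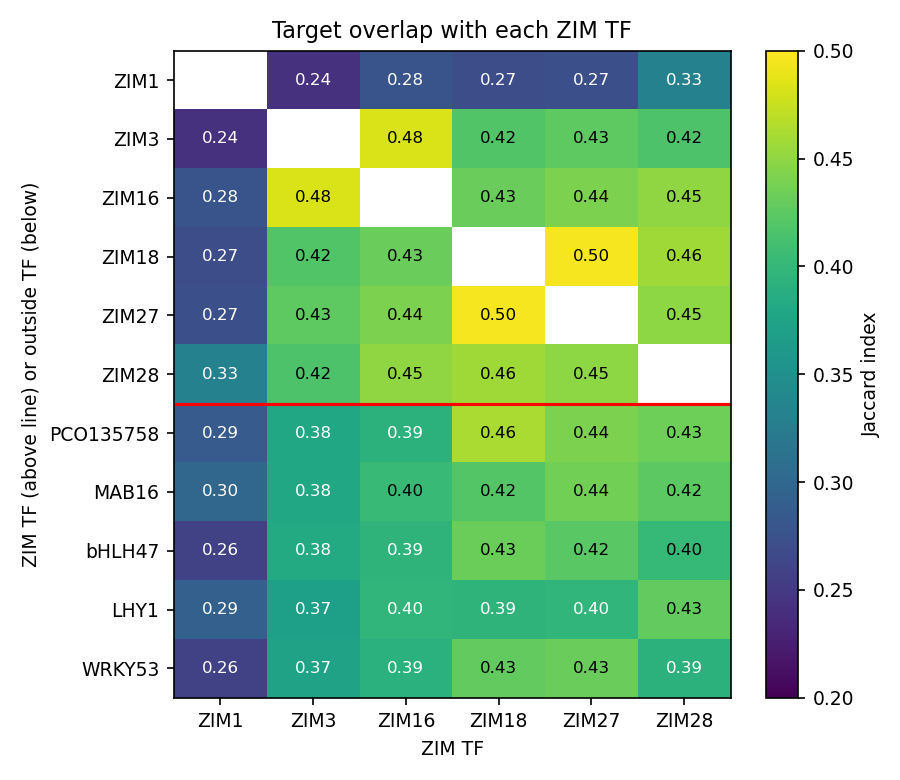
Jaccard index between the targets of each ZIM TF (columns) and those of the other ZIM TFs (above the red line) or the 5 TFs outside the family with the highest mean index (below it); the diagonal is left blank. The ZIM1 column is lowest throughout, and PCO135758 reaches 0.46 with ZIM18, which only ZIM18 with ZIM27 and ZIM3 with ZIM16 exceed.

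By mean index with the 6 ZIM TFs, the nearest TFs outside the family came from several families. PCO135758, in the ELF3 family, had the highest mean (0.399), followed by MAB16 (0.394), which the study placed in no family, bHLH47 (0.382), LHY1 (0.38) and WRKY53 (0.379). ELF3 and LHY are known from Arabidopsis as parts of the circadian clock, and WRKY proteins bind W-box elements in stress-related promoters. The median over the 98 outside TFs was 0.289. PCO135758 was the nearest outside partner of ZIM18 (0.462), ZIM27 (0.441) and ZIM28 (0.434). For ZIM3 it was bHLH47 (0.383), then MYB37 (0.381), and for ZIM16 it was MAB16 (0.402), then LHY1 (0.397) and bZIP38 (0.396).

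These TFs listed most core targets. PCO135758 listed 579 of the 634 (91.3%), bHLH47 569 (89.7%), LHY1 555 (87.5%), MAB16 552 (87.1%) and WRKY53 546 (86.1%). Such shares were not limited to these TFs, since MYB37, in place 9 by mean index, listed 557 (87.9%). The median outside TF listed 70.5% of the core, and 21 of the 98 listed at least 80%. Conversely, 86.9% of the targets of PCO135758 and 89% of those of MAB16 were targets of at least 1 ZIM TF, against a median of 75.9% over the outside TFs.

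Most core targets were genes that most of the other TFs listed too: 500 of the 634 (78.9%) were listed by at least 50 of the other 98 TFs, and 74 (11.7%) by 40 or fewer. A core target was listed by a median of 66 of the other 98 TFs, with a range of 14 to 93. The median was 52 for genes listed by 5 ZIM TFs, 40 for 4, 31 for 3, 21 for 2, 12 for 1 and 3 for none. Of the 156 genes listed by at least 81 other TFs, 134 (85.9%) were core targets. Of the 13346 genes listed by 1 to 10 other TFs, 0 were core targets and 12049 (90.3%) were listed by no ZIM TF. Among the 1262 genes listed by at least 50 other TFs, 5 (0.396%) were listed by no ZIM TF.

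**Figure D4:**
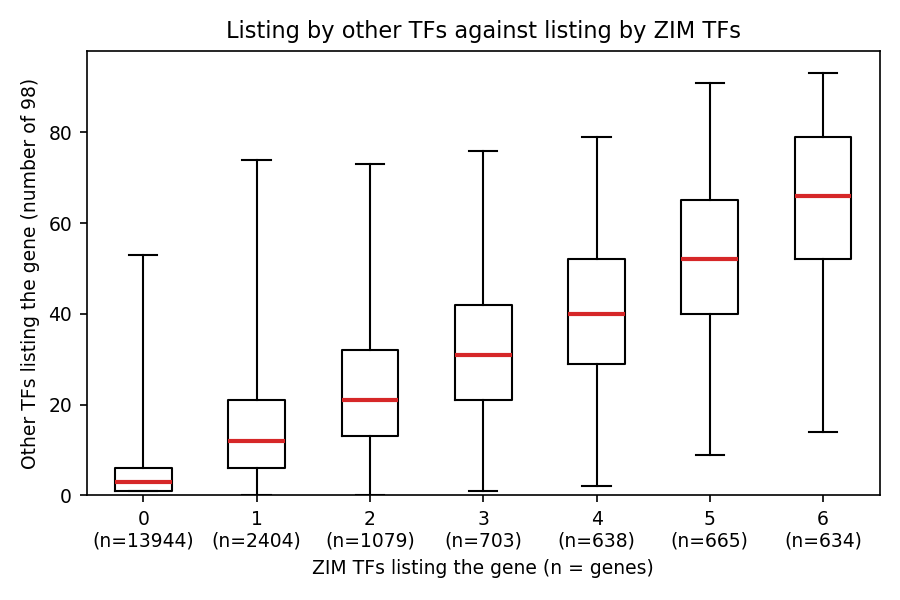
Number of the other 98 TFs that list a gene, for genes listed by 0 to 6 ZIM TFs; red lines are medians, boxes quartiles and whiskers the lowest and highest gene. The median is 66 other TFs in the core and 3 for genes listed by no ZIM TF, and the whiskers of the core (14 to 93) and of genes listed by no ZIM TF (1 to 53) overlap.

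Few genes were listed by ZIM TFs and by nothing else. Of the 6123 ZIM targets, 67 were listed by no other TF (1.09%; 0.334% of all target genes), 60 of them by 1 ZIM TF and 7 by 2. ZIM3 listed 20 of these, ZIM27 16, ZIM18 15, ZIM1 and ZIM16 11 each and ZIM28 1. Their smallest p was 8.46e-05. Of the 7 listed by 2 ZIM TFs, Zm00001d046317 was listed by ZIM3 (p of 0.0248) and ZIM16 (p of 0.00259), and Zm00001d005908 by ZIM16 (p of 0.0047) and ZIM18 (p of 0.0263).

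For each gene, the share of ZIM TFs that listed it was set against the share of the other TFs in a two-sided Fisher's exact test, which counts the TFs as independent although all were profiled in the same cells by the same procedure. At a Benjamini-Hochberg adjusted p under 0.05 over the 20067 genes, 0 genes (0%) were listed more often by ZIM TFs and 0 (0%) less often. At an unadjusted p under 0.05, 586 genes (2.92%) were listed more often by ZIM TFs and 29 (0.145%) less often. A gene listed by all 6 ZIM TFs and no other TF would have had an exact p of 6.59e-10, but no gene was listed in this way. Every core target was listed by at least 14 other TFs. A lone call over the 20067 genes needs an exact p of at most 2.49e-06, which no core target reached. The test thus had little room to call a core target, and the absence of calls says little about them. The smallest exact p found was 2.55e-05 (adjusted p = 0.303), for Zm00001d004933, a core target listed by 14 other TFs. Its p-values in the table were 7.73e-04 for ZIM1, 6.22e-05 for ZIM3, 2.42e-04 for ZIM16, 0.0257 for ZIM18, 0.0186 for ZIM27 and 0.0138 for ZIM28. The core target with the next fewest other TFs was Zm00001d011882, with 18, which had a p of 2.07e-06 for ZIM1 and between 0.00283 and 0.0498 for the other 5 ZIM TFs (Fisher's exact p = 8.87e-05, adjusted p = 0.303).

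The ZIM genes were themselves targets of ZIM TFs. Of the 36 ordered pairs of a ZIM TF and a ZIM gene, itself included, 28 were listed, 16 of them at a p of at most 0.001. ZIM1 and ZIM16 listed all 6 ZIM genes, ZIM3 listed 5, ZIM18 and ZIM28 listed 4 each and ZIM27 listed 3. The median over the other 98 TFs was 3 of the 6, and their range was 0 to 6. In Arabidopsis, JAZ genes are known as targets of the MYC TFs that JAZ proteins repress.

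The ZIM16 and ZIM27 genes, which neighbour each other, stood out among the 6. Both were core targets. The ZIM27 gene had p-values of 2.44e-68 for ZIM1, 0.00207 for ZIM3, 1.23e-08 for ZIM16, 1.60e-04 for ZIM18, 1.83e-05 for ZIM27 and 7.87e-14 for ZIM28. For the ZIM16 gene they were 8.41e-65 for ZIM1, 4.34e-07 for ZIM3, 1.12e-04 for ZIM16, 1.17e-04 for ZIM18, 2.80e-05 for ZIM27 and 7.27e-13 for ZIM28. In the ZIM1 list they were the targets with rank 3 and rank 5 of 1526 by p. They were also listed by 84 (ZIM27) and 78 (ZIM16) of the other 98 TFs, so that their place in the core was shared with most TFs. Whether binding was nearer to the one gene or to the other cannot be told apart in a table of genes.

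The other 4 ZIM genes were listed by fewer of the other TFs. The ZIM28 gene was also a core target, with a p of 7.43e-12 for ZIM16, 4.97e-05 for ZIM1 and between 0.00978 and 0.0442 for ZIM3, ZIM18, ZIM27 and ZIM28, and was listed by 50 other TFs. The ZIM1 gene was listed by every ZIM TF except ZIM27, with a p of 2.49e-04 for ZIM1, 0.00138 for ZIM3, 0.00916 for ZIM16, 0.015 for ZIM28 and 0.0416 for ZIM18, and by 34 other TFs. These genes thus drew 6 and 5 of the ZIM TFs and a smaller share of the others. The ZIM18 gene was listed by ZIM1 (p of 2.29e-04), ZIM16 (p of 0.00387) and ZIM3 (p of 0.0389), and by 12 other TFs. The ZIM3 gene was listed by ZIM1 (p of 6.85e-04) and ZIM16 (p of 0.00565), and by 24 other TFs.

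Self-listing was seen for 4 of the 6, namely ZIM1, ZIM16, ZIM27 and ZIM28, and not for ZIM3 and ZIM18. The authors had subtracted peaks inside the own locus of each TF, because plasmid DNA that carries the TF can give reads there. What part of a self-listing came from binding outside the locus was not tested.

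None of the 6 ZIM genes as targets passed the adjusted test. The ZIM1, ZIM28 and ZIM18 genes had an unadjusted Fisher's exact p of 0.0268, 0.0295 and 0.0378, and the ZIM3, ZIM16 and ZIM27 genes of 0.638, 0.593 and 1 (adjusted p = 1 for all 6).

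The 5 nearest outside TFs all listed ZIM genes, whereas 3 of their own genes were listed by no ZIM TF. PCO135758 and WRKY53 each listed 3 of the 6 ZIM genes, MAB16 listed 2, and bHLH47 and LHY1 listed 4 each, and all 5 listed the ZIM16 and ZIM27 genes. The strongest of these pairs was LHY1 on the ZIM27 gene (p of 4.64e-11). In the other direction, the PCO135758, MAB16 and LHY1 genes were listed by 0 of the 6 ZIM TFs, and by 7, 3 and 4 of the other 98. The WRKY53 gene was listed by ZIM3 (p of 0.0137) and ZIM28 (p of 0.0346), and the bHLH47 gene by ZIM1 alone of the 6 (p of 1.04e-09).

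Several of the profiled TF genes were core targets. Of the 96 profiled TF genes that were targets of any TF, 20 (20.8%) were core targets of the ZIM TFs, against 634 of all 20067 target genes (3.16%), and 41 were listed by no ZIM TF. These 20 were listed by a median of 77.5 other TFs, against 66 for all core genes. Among genes listed by at least 50 other TFs, 20 of 27 profiled TF genes (74.1%) and 500 of all 1262 genes (39.6%) were core. These sets were not matched by the number of other TFs. The core share of all genes was 41.8% at 61 to 80 other TFs and 85.9% at 81 to 98. The 20 core TF genes include 3 ZIM genes. The profiled TFs were chosen by the study and are no sample of all TF genes.

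By family, 6 of the 13 listed EREB genes were core targets, as were all 3 NAC genes, 3 of the 5 WRKY genes, 2 of 8 MYB genes, 1 of 7 homeobox genes and 1 of 2 GRAS genes. EREB (AP2/ERF), WRKY and NAC proteins are families known for responses to stress and hormones. COL18 and 3 ZIM genes completed the 20. None of the 8 MYBR genes, the 7 GLK genes or the 6 bZIP genes was a core target. All 5 WRKY genes and 12 of the 14 EREB genes were listed by at least 1 ZIM TF, against 1 of 6 bZIP genes and 2 of 9 MYB genes. Over all, 57.3% of the profiled TF genes in the table and 30.5% of all target genes were listed by at least 1 ZIM TF. The number of other TFs moved with these counts, with a median of 61 for WRKY genes and 53.5 for EREB genes, against 11 for bZIP genes and 3 for MYB genes, and its part in them was not tested.

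EREB97 and EREB198 were the core TF genes with a p of at most 4.36e-10 in all 6 lists. For EREB97 the p-values were 4.36e-10 for ZIM1, 1.24e-16 for ZIM3, 7.28e-21 for ZIM16, 4.65e-18 for ZIM18, 7.58e-15 for ZIM27 and 2.50e-26 for ZIM28. For EREB198 they were 1.72e-37, 9.18e-12, 1.37e-19, 3.66e-11, 9.33e-18 and 3.96e-17 in the same order of ZIM TFs. Both genes were strong in all 6 lists, and 89 and 87 of the other 98 TFs listed them. WRKY95 had a p between 4.27e-13 (ZIM1) and 2.88e-08 (ZIM18) and was listed by 84 other TFs. NAC23 had a p between 4.80e-16 (ZIM3) and 2.71e-06 (ZIM1) and was listed by 81 other TFs. EREB147 and EREB109 were strong in 5 lists each, with their weakest p in ZIM1 (7.58e-04) and in ZIM28 (0.00133), and were listed by 82 and 87 other TFs.

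Other core TF genes had more uneven pairs. MYB4, a MYB-family TF gene, had a p of 1.54e-18 for ZIM1 and 9.30e-10 for ZIM28, and between 1.35e-05 and 0.00967 for the other 4. COL18 had a p of 5.86e-21 for ZIM28 and 4.37e-14 for ZIM1, and between 4.85e-06 and 5.70e-05 for the other 4. The pairs with ZIM1 and ZIM28 were thus the strongest in both genes. GRAS23 had a p of 1.40e-12 for ZIM16 and between 1.83e-04 and 0.0422 for the other 5. EREB211 had a p of 8.96e-12 for ZIM1 and between 1.18e-06 and 9.75e-04 for the other 5. HB70 had 3 strong pairs, with ZIM1 (p of 4.73e-09), ZIM27 (p of 1.43e-08) and ZIM16 (p of 1.44e-08), and 3 weaker ones, with ZIM18 (p of 5.16e-04), ZIM28 (p of 0.0181) and ZIM3 (p of 0.031). WRKY94 was more even, with a p of 6.58e-10 for ZIM1 and between 2.07e-07 (ZIM16) and 3.72e-05 (ZIM18) for the other 5. MYB81, WRKY82, NAC109, NAC49 and EREB54 had p-values between 2.94e-07 and 0.0313.

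**Figure D5:**
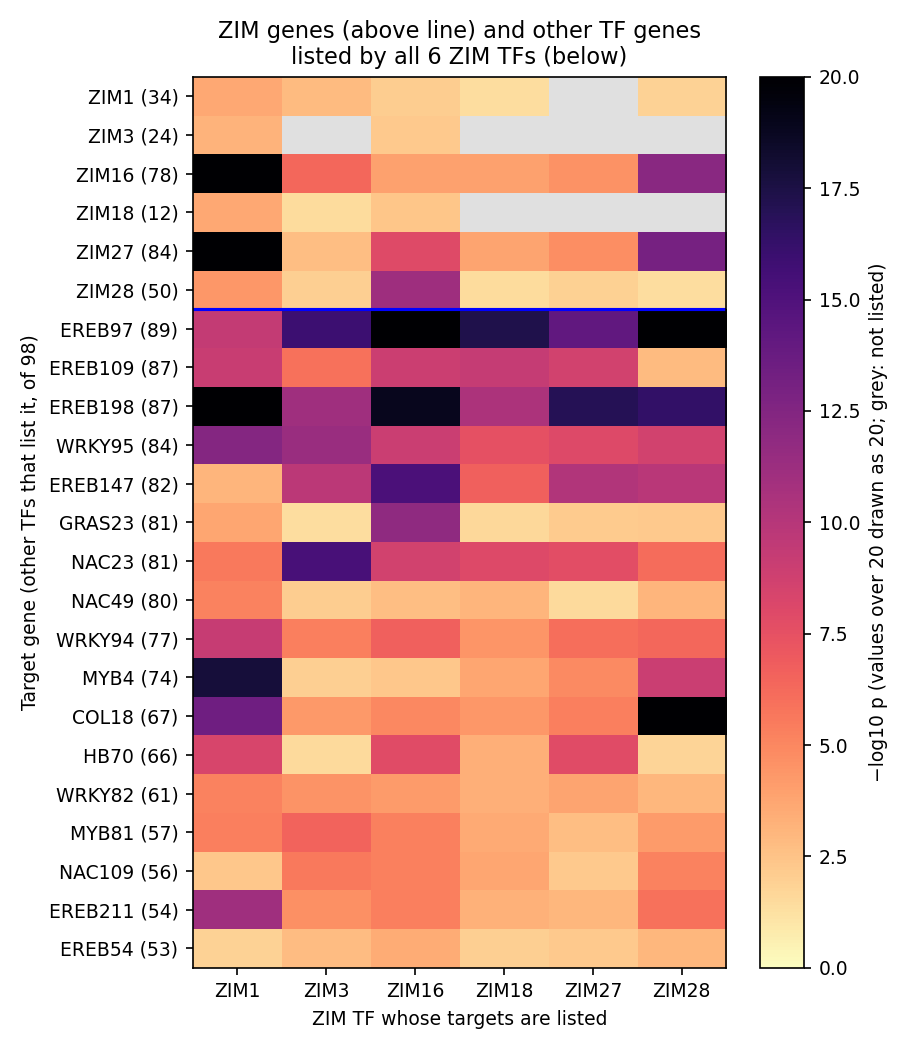
−log10 of the p-value of each ZIM TF (columns) on the 6 ZIM genes (above the blue line) and on the 17 other profiled TF genes listed by all 6 ZIM TFs (below it, ordered by the number of other TFs that list them, in parentheses); grey cells are not listed and values over 20 are drawn as 20. The ZIM16 and ZIM27 genes are darkest in the ZIM1 column, whereas EREB97 and EREB198 have a p of at most 4.36e-10 in all columns.

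Of the core TF genes, EREB54 and EREB211, listed by 53 and 54 other TFs, and the ZIM28 gene, listed by 50, had the fewest other TFs. Their unadjusted Fisher's exact p was 0.0351 for EREB54 and 0.0376 for EREB211, with an adjusted p of 1 for each.

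Of the 96 profiled TF genes, 7 (7.29%) were private targets, against 12% of all target genes. Besides the bHLH47 gene in the ZIM1 list, ZIM18 alone listed bHLH118 (p of 0.0147), SIG6, a sigma-like factor (p of 0.0235), and bZIP40 (p of 0.0305). ZIM3 alone listed HB33 (p of 0.0171), ZIM27 alone listed bHLH172 (p of 0.018) and ZIM16 alone listed HAG7, of the GNAT family (p of 0.0322). HB33 was an exception in its standing outside the family, since 67 of the other 98 TFs listed it. The other 6 genes were listed by 3 to 29 other TFs. ZIM28 had no private TF gene.

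The study followed 8 genes of C4 photosynthesis, and the ZIM TFs listed 3 of them (37.5%), a share near the 30.5% of all target genes that at least 1 ZIM TF listed. CA1 and CA2, which encode carbonic anhydrase, the enzyme that supplies bicarbonate to the C4 cycle, were core targets. CA1 had a p of 2.03e-05 for ZIM1, 1.60e-04 for ZIM3, 3.34e-07 for ZIM16, 8.71e-08 for ZIM18, 3.55e-09 for ZIM27 and 1.83e-06 for ZIM28. CA2 had weaker pairs, with a p of 0.0138 for ZIM1, 2.75e-04 for ZIM3, 3.08e-04 for ZIM16, 1.18e-04 for ZIM18, 0.0144 for ZIM27 and 0.0493 for ZIM28. CA1 was listed by 90 and CA2 by 44 of the other 98 TFs. PPDK, which regenerates phosphoenolpyruvate, was listed by ZIM27 only of the 6 (p of 0.0202) and by 33 other TFs. PEPC, NADP-MDH, RbCS1 and RbCS2 were listed by 0 ZIM TFs and by 11, 6, 4 and 4 other TFs, and NADP-ME was listed by no TF of the table.

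The study had also drawn up a list of hub genes from the number of TFs that list each gene. All of its genes were listed by at least 5 ZIM TFs and 175 (85%) by all 6. ZIM18 missed 0 of the hub genes, ZIM27 missed 1, ZIM28 2, ZIM3 3, ZIM16 5 and ZIM1 20. Of the 44 hub genes with a named TF family, 38 (86.4%) were core targets. The list was chosen from these same pairs, ZIM pairs included, and is no independent evidence for the core.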

How the data were processed

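ChIP-seq libraries of 104 TFs were aligned by the authors to B73 RefGen_v4 with Bowtie2 2.2.5 and handled with SAMtools 1.3. They kept peaks at 1% IDR, subtracted peaks in the own locus of each TF, and ran TIP. The deposited table gives a p-value for each TF and target pair that, by the study's account, passed a false-discovery rate of 5%, with replicates combined. The largest listed p was 0.05 after rounding, and whether the values are from before or after a false-discovery adjustment cannot be told. A pair not in the table has no value.

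TF names, families, the C4 genes and the hub genes came from the study's lists, matched by gene model. Target sets were compared by counts and the Jaccard index, and each gene by a two-sided Fisher's exact test (scipy 1.17.1) of 6 against 98 TFs with Benjamini-Hochberg adjustment. This test was also run on simulated data, where planted genes were listed by all 6 ZIM TFs and almost no other TF. The simulated TFs were drawn independently. That run therefore does not show how the test behaves for genes listed by 14 or more other TFs, as all core targets were. Alternatives were p limits of 0.001 and 1e-05, leaving out each ZIM TF, leaving out ZIM3 and ZIM27, leaving out TFs with fewer than 500 targets, the overlap coefficient, and the 1000 targets of smallest p. The last left out TFs with fewer than 1000 targets.

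Named genes were the 6 ZIM genes, the profiled TF genes listed by all 6 ZIM TFs or by 1 with the smallest p (3 for each), the 8 C4 genes, the 5 outside TFs with the highest mean index and the 3 nearest to each ZIM TF. Of the genes known by identifier only, the 2 core targets with the fewest other TFs and the 2 ZIM-only targets listed by the most ZIM TFs were named. WRKY, EREB and other family members outside this rule were counted only. A jasmonate pathway list was planned and was not reported, since fewer than 5 of its genes were paired with the table's identifiers. The members and lists were chosen with earlier results of these data known.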

Additional observations from a re-analysis of the deposited data

Results flagged for a closer look

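The mean Jaccard index of ZIM1 with the other 5 ZIM TFs, 0.28, lay far below those of the rest, which ran between 0.397 (ZIM3) and 0.421 (ZIM28). The gap to the next value was 0.832 of the whole range, past the 95% limit of the Dixon test for 6 values, which chance passes in about 1 of 20 groups of independent values. It was 1 of 14 values tested (7 measures, both ends), and the 6 means share pairs and are not independent. The shorter list of ZIM1 (1526 targets, against 2576 to 3242) moved with it, and with 1000 targets each its pairs were still the lowest.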

How the results depend on the processing

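No paired analysis was possible because the table combines the replicates of each TF. The table holds 1 value for each pair, and replicate agreement and depth were not analysed here. At a p of at most 0.001 and at most 1e-05, ZIM1 had 845 and 494 targets, ZIM3 957 and 287, ZIM16 1061 and 424, ZIM18 885 and 293, ZIM27 908 and 299, and ZIM28 1018 and 491. Core targets came to 172 and 43, private targets to 1126 and 661, ZIM pairs of the 36 to 16 and 7, core TF genes to 10 and 4, and core hub genes to 105 and 38. These counts fall by construction, since fewer pairs are kept. ZIM-only targets came to 64 and 58, of which 3 and 0 were ZIM-only over the whole table; the rest became so as the weaker pairs of other TFs were dropped.

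The mean index was 0.254 over the ZIM pairs, 0.12 over the pairs with other TFs and 0.27 for the nearest outside TF, still PCO135758, at a p of at most 1e-05. As an overlap coefficient, shared targets over the shorter list, these were 0.649, 0.488 and 0.793. The last belonged to MYBR64, in place of PCO135758. As Jaccard indices in the same order, they were 0.324, 0.184 and 0.334 at a p of at most 0.001. With 1000 targets each, where outside TFs with fewer than 1000 targets were left out, they were 0.329, 0.215 and 0.336. All were lower than over the whole lists, by less than 1 SD over pairs or outside TFs. That SD is a spread and does not measure the error of a mean.

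Leaving out each ZIM TF gave 655 to 1081 core targets, with the highest count without ZIM1, and 2296 to 2479 private targets. The mean index within the family was 0.376 to 0.447, and the highest outside mean was 0.388 (MAB16, without ZIM18) to 0.422. In each case 0 genes were called as listed more often by ZIM TFs. Without ZIM3 and ZIM27, 750 genes were core. Without TFs of fewer than 500 targets, 0 genes were called more often and 0 less often. At a p of at most 1e-05, 1 gene of 5941 was called more often by ZIM TFs: Zm00001d011881, named after its values were seen, had 6 ZIM TFs and 10 others (Fisher's exact p = 5.28e-06, adjusted p = 0.0314). Over the whole table it was listed by all 6 and by 81 others (Fisher's exact test, adjusted p = 1).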
